A study of Mus musculus with 15 samples.

Results

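A set of 9 genes that make, package, take up or break down the transmitters a midbrain dopamine neuron may release besides dopamine were followed: Slc17a6 and Slc17a8 for glutamate, Gad1, Gad2, Slc32a1, Slc6a11 and Abat for GABA, and Slc18a3 and Chat for acetylcholine. They were chosen by symbol for these known roles. All 9 were among the 21566 genes of a table of sorted cells, and 6 of the 9 were among the 10781 genes of a time series table. Every sample was mouse ventral midbrain of the genotype Pitx3-GFP, in which green fluorescent protein (GFP) reports Pitx3, a transcription factor gene of midbrain dopamine neurons, and every sample was purified by fluorescence-activated cell sorting (FACS). In the sorted experiment, GFP- cells were set against GFP+ cells at embryonic day 14 (E14). The time series held GFP+ cells at E14, at embryonic day 16 (E16) and at P0, the day of birth. Each of the 5 groups had 3 libraries of total RNA depleted of ribosomal RNA, for 15 in all. Midbrains came from 3 litters, and nothing in the labels ties each replicate to a litter, so p-values here rest on the spread among these libraries only, which may be technical.

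Glutamate is loaded into synaptic vesicles by vesicular glutamate transporters, and Slc17a6 encodes the one known from many midbrain dopamine neurons. GABA is made from glutamate by the glutamate decarboxylases of Gad1 and Gad2, is loaded by the vesicular transporter of Slc32a1, is taken up from outside the cell by transporters such as that of Slc6a11, and is broken down by the transaminase of Abat. Dopamine neurons are known to release GABA as well, which has been linked to uptake of GABA, to the vesicular monoamine transporter of Slc18a2 and to an aldehyde dehydrogenase, Aldh1a1. Acetylcholine is made by the enzyme of Chat and loaded by the transporter of Slc18a3, and both mark cholinergic neurons such as motor neurons.

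The labels give the cell type as dopamine neurons for GFP- and GFP+ samples alike. Values are given as normalized reads, which in the sorted experiment are reads divided by 1 scaling factor per library. Th, which encodes the tyrosine hydroxylase that starts dopamine synthesis, stood at 77.5, 110 and 82.2 normalized reads in the GFP- libraries and at 7649, 8695 and 9333 in the GFP+ libraries. This marker was thus low in the GFP- cells, and the cells are called by their sort gate here. The 6 dopamine genes checked summed to 3441 to 4334 normalized reads in GFP- and to 64783 to 69701 in GFP+ libraries. Nr4a2 (1870 to 2470) and Ddc (998 to 1475) were the highest of the 6 in GFP- libraries. In GFP+ libraries they stood at 12226 to 14360 and at 30747 to 31471. The sorted libraries held 17369191 to 22374153 reads. In bulk samples such as these, fewer cells of a type and less RNA per cell cannot be told apart.

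The 2 decarboxylase genes, which serve the same step and differed widely from each other in GFP+ cells, are shown first by the DNA before a RefSeq start site of each. Both lie on chromosome 2 (GRCm38): Gad2 at chr2:22622205-22693874 and Gad1 at chr2:70553072-70602014, both on the plus strand. RefSeq (GRCm38.p6) gave windows of 250 bases before a start for 8 of the 9 members, 10 windows in all, and Abat had none. The stretches below are the parts of the Gad2 window (chr2:22622077-22622204) and of the Gad1 window (chr2:70561879-70562041) outside any annotated exon of the gene. The Gad1 stretch lies inside the annotated span of Gad1, before a start that RefSeq places within that span, so it is intronic sequence of the gene as annotated. Both are printed on the plus strand, 5′ to 3′, with capitals marking a match to a searched motif.
Gad2: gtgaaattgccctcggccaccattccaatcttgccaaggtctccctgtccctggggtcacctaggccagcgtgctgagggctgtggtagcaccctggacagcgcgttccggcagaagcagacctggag
Gad1: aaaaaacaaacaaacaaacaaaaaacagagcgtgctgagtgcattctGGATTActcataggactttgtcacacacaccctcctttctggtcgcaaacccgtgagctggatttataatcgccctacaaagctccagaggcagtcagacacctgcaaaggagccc
The 4 motifs searched, on both strands of the 250 bases, were forms known to be bound by 4 classes of factor. AAAGGTCA is bound by nuclear receptors of the Nr4a2 type. The form bound by homeodomains of the bicoid type, such as that of Pitx3, is TAATCC. For the GATA factors the letters AGATAA were used. The E-box searched was CATCTG. No 2 matches overlapped. The Gad1 window held TAATCC once, on the minus strand (GGATTA in the line above), and the Gad2 window held CATCTG once, in the exonic stretch not printed. Among the 10 member windows, TAATCC was found in 1, CATCTG in 3 (Gad2 and 1 of the 2 windows each of Slc17a6 and Slc17a8) and the other motifs in none. Over all 32851 windows of this length the shares were 1.34% for AAAGGTCA, 6.25% for TAATCC, 9.99% for AGATAA and 14.4% for CATCTG. A match describes these letters and is no evidence that a factor binds there.

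At E14 the GFP+ cells held more Slc32a1 and slightly more Gad2 RNA than the GFP- cells, and less Gad1, Slc17a8, Slc6a11 and Abat. Slc17a6, the most abundant member per length, was only a little lower. Chat and Slc18a3 were near the detection limit on both sides. In limma on log2(normalized reads + 1), 7 of the 9 members passed an adjusted p of 0.05, with 2 higher and 5 lower in GFP+ cells, against 30.7% of all 18260 genes tested (12.7% higher and 18.0% lower). All 9 members passed the filter on low values. Of all genes called, 41.3% were higher in GFP+ cells, and 27.9% were higher when libraries were set to equal totals. The members' median log2 difference was -0.87, beside 0.02 over all genes tested.

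**Figure D1:**
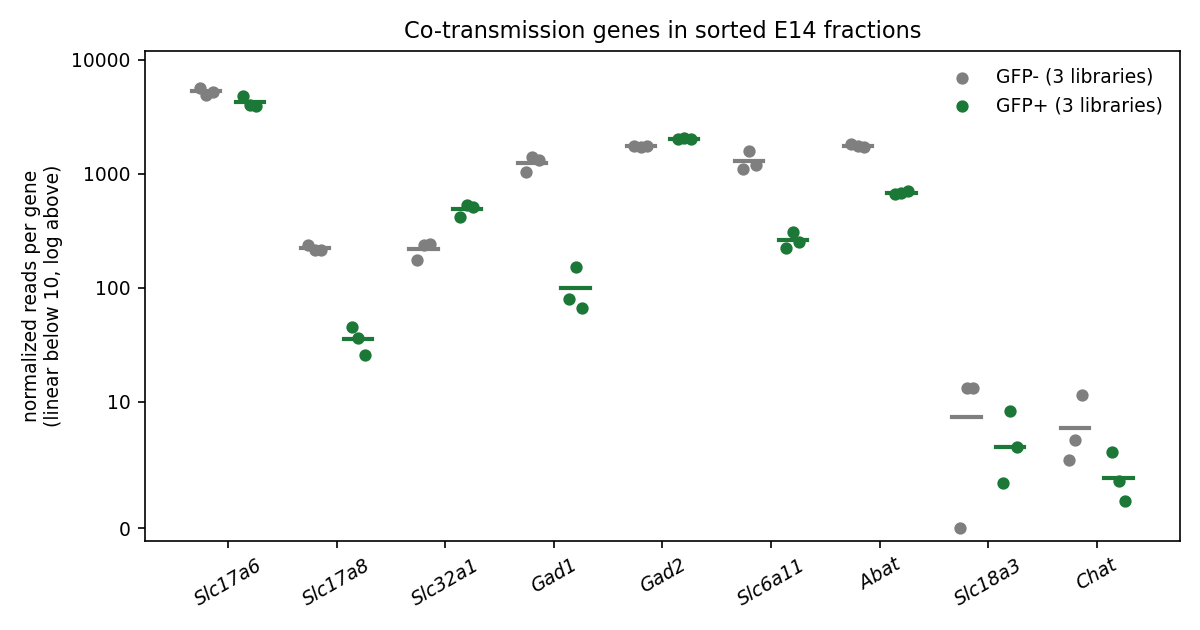
Normalized reads of the 9 members in each sorted library at E14 (GFP- and GFP+, 3 libraries each; points are libraries, bars are means, and the axis is linear below 10 and logarithmic above). Gad1 lay between 1037 and 1407 in GFP- and between 65.9 and 151 in GFP+ libraries, while Gad2 lay between 1712 and 2053 over all 6.

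Of the glutamate genes, Slc17a6 (chr7:51622006-51671119, plus strand) stood at 5688, 4913 and 5256 normalized reads in the GFP- libraries and at 4846, 4028 and 3919 in the GFP+ libraries. The GFP+ libraries all lay below the GFP- libraries, by a small gap. The log2 difference was -0.31 (SE 0.10, limma adjusted p = 0.0291). This call was lost without GFP- library 1 or 3 or GFP+ library 2 or 3, with limma adjusted p-values of 0.0695, 0.0821, 0.0982 and 0.133.

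Slc17a8 (chr10:89574020-89621253, minus strand), a second vesicular glutamate transporter, stood at 237, 214 and 215 normalized reads in GFP- and at 45.5, 36.1 and 25.5 in GFP+ libraries. Every GFP+ library was far below every GFP- library. The log2 difference was -2.64 (SE 0.22, limma adjusted p = 2.54e-06), so the 2 glutamate transporters of this group fell by very different amounts.

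The decarboxylases diverged. Gad1 stood at 1037, 1407 and 1309 normalized reads in GFP- and at 80.2, 151 and 65.9 in GFP+ libraries, a log2 difference of -3.73 (SE 0.25, limma adjusted p = 5.09e-07). The groups were far apart, and the highest GFP+ library was number 2. Gad2 stood at 1740.5, 1712 and 1764 in GFP- and at 2028, 2053 and 2025 in GFP+ libraries, a log2 difference of 0.23 (SE 0.07, limma adjusted p = 0.0299). The Gad2 groups did not overlap, but the gap was narrow. The Gad2 call was lost with equal library totals (log2 difference 0.13, limma adjusted p = 0.186), in edgeR's quasi-likelihood test on reads recovered from the values (0.21, adjusted p = 0.0510), and without GFP- library 2 or 3 or GFP+ library 2 or 3 (limma adjusted p = 0.0965, 0.0793, 0.0883 and 0.0803).

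Slc32a1 (chr2:158610767-158615748, plus strand) moved the other way from Gad1. It stood at 174, 238 and 239.6 normalized reads in GFP- and at 419, 533 and 506 in GFP+ libraries, with every GFP+ library above every GFP- library. The log2 difference was 1.16 (SE 0.15, limma adjusted p = 0.000102). An antisense gene, Gm14205, shares 697 exon bases with Slc32a1 and stood at 0, 0.875 and 3.5 normalized reads in GFP- and at 13.2, 19.4 and 7.44 in GFP+ libraries. Strand use in the counting is not known here, and reads of the shared stretch cannot be told apart.

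Genes of GABA uptake and breakdown were lower in GFP+ cells. Slc6a11 (chr6:114131241-114249952, plus strand) stood at 1099, 1572 and 1194 normalized reads in GFP- and at 223, 309 and 249.9 in GFP+ libraries, a log2 difference of -2.30 (SE 0.15, limma adjusted p = 4.53e-07). Abat (chr16:8513429-8621568, plus strand) stood at 1818, 1741 and 1716 in GFP- and at 663, 684 and 703 in GFP+ libraries, a log2 difference of -1.36 (SE 0.08, limma adjusted p = 1.34e-07). Neither gene's groups overlapped, and the Abat libraries were the tighter of the pair.

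The acetylcholine genes gave few reads anywhere. Slc18a3 (chr14:32462438-32464850, minus strand) lies within the span of Chat (chr14:32408203-32465989, minus strand) and shares no exon base with it. Slc18a3 stood at 0, 13.1 and 13.1 normalized reads in GFP- and at 3.59, 9.25 and 6.38 in GFP+ libraries, and the groups overlapped. The 0 allows up to 3.23 normalized reads, the value of 3 reads in that library, for counting error only. Its fitted log2 difference was 0.27 (95% interval -1.73 to 2.26, limma adjusted p = 0.855), although its mean was higher in GFP- (8.75) than in GFP+ cells (6.41). Chat stood at 5.38, 7.0 and 11.4 in GFP- and at 5.98, 3.70 and 2.13 in GFP+ libraries, which overlapped, with a log2 difference of -0.87 (95% interval -2.0 to 0.25, limma adjusted p = 0.227). A difference in either gene was not detectable at this depth.

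Levels of different genes were set side by side as normalized reads per kilobase of exon. The length was that of all annotated exons of a gene merged, so exons not used in these cells lower its level. The order of genes and the size of ratios between genes depend on this choice. In GFP+ cells the order of mean levels was Slc17a6 (789.8), Gad2 (346), Slc32a1 (174), Abat (88.2), Slc6a11 (51.6), Gad1 (12.96), Slc17a8 (7.56), Slc18a3 (2.66) and Chat (0.837). Among neighbours in that order, the ranges of Gad1 and Slc17a8 overlapped. In GFP- cells the order was Slc17a6 (979), Gad2 (296), Slc6a11 (255), Abat (227), Gad1 (164), Slc32a1 (77.7), Slc17a8 (47.1), Slc18a3 (3.63) and Chat (1.68). There Gad2 overlapped Slc6a11, Slc6a11 overlapped Abat, and Slc18a3 overlapped Chat.

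Ratios within a library, per exon length, put the divergence on a scale that no library factor touches. The ratio of Gad2 to Gad1 was 2.18, 1.58 and 1.75 in GFP- and 32.9, 17.7 and 39.9 in GFP+ libraries, a 15.7-fold difference of geometric means. The ratio of Slc17a6 to Slc32a1 was 16.9, 10.7 and 11.4 in GFP- and 5.99, 3.92 and 4.01 in GFP+ libraries, 0.358 times as high in GFP+ cells. Neither pair of groups overlapped. The exact permutation p was 0.1 for each, two-sided, which is the smallest that 3 against 3 allows, and 0.133 after adjustment over 8 such tests. These ratios, here and in the time series below, were added after seeing the data. They use the same libraries as the tests of single genes and are no independent support for them.

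**Figure D2:**
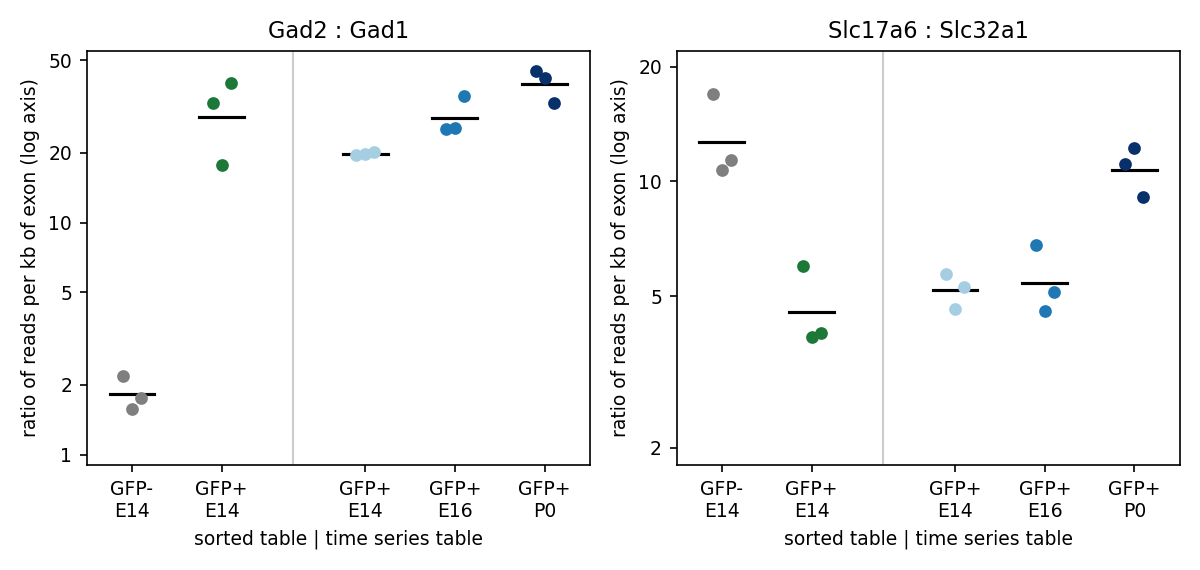
Ratio of Gad2 to Gad1 and of Slc17a6 to Slc32a1 per exon length in each library (log axis; points are libraries). Gad2 to Gad1 was at most 2.18 in GFP- libraries and at least 17.7 in every GFP+ library of either table.

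The other genes of these pathways were mixed. Of 6 other GABA-handling genes tested, 2 were higher in GFP+ cells (Aldh1a1 by 7.80 on the log2 scale and Slc38a1, a glutamine transporter, by 0.39), 3 were lower (among them the aldehyde dehydrogenases Aldh5a1 at -0.81 and Aldh9a1 at -0.80) and 1 did not pass, with a median of -0.66. Of 12 other glutamate-handling genes, 4 were higher and 5 lower, with a median of -0.28. The higher ones included Slc1a2, a glutamate uptake transporter (0.55), and Slc38a2, a glutamine transporter (0.39), and the lower ones were led by Slc1a3, a glial glutamate transporter (-3.80), and Slc1a6, another uptake transporter (-1.17). Of 6 other acetylcholine-handling genes, 3 were higher and 3 lower, with a median of -0.36. Slc10a4, a vesicular protein of monoamine and cholinergic neurons, was higher by 4.43 and Prima1, the membrane anchor of acetylcholinesterase, by 3.64. Prima1 was near the detection limit in GFP- libraries (2.15, 0.875 and 0 normalized reads, against 13.2, 21.3 and 35.1 in GFP+), so the size of its difference is uncertain. Bche, a cholinesterase, was at -3.08, Slc5a7, the choline transporter, at -1.39 and Ache, acetylcholinesterase, at -1.02.

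Transcription factors of other neuron types were lower in GFP+ cells. All 15 GABAergic factors tested were lower, with a median of -3.98, led by Dlx6 (-5.08), Dlx1 (-4.65) and Helt (-4.62). They summed to 3647, 4221 and 4507 normalized reads in GFP- and to 229, 340.5 and 244 in GFP+ libraries. GFP+ library 2, the highest of the GFP+ libraries in this sum, was also the highest in Gad1, Slc32a1, Gad2, Slc6a11 and Slc18a3. Slc17a6, Slc17a8, Abat and Chat were highest in another GFP+ library. All 6 glutamatergic factors tested were lower (median -4.32, led by Lhx2 and Barhl2), with sums of 2864 to 3138 and of 129 to 201. Of 5 genes of the cholinergic and motor neuron list tested, the 4 transcription factors were lower. The other 1, Prph, encodes an intermediate filament protein and did not pass (-0.69, limma adjusted p = 0.122). Of 11 radial glia and astroglia markers, 10 were lower, and their sum was 75911 to 89557 in GFP- and 7499 to 8813 in GFP+ libraries. In the GFP+ libraries no marker of these lists was at 0 in all 3. At 0 in at least 1 were 3 of the 15 GABAergic factors (Dlx5, Helt and Sox14) and Tbx20 of the cholinergic and motor neuron list. The part of these other cells in the members' differences was not tested.

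**Figure D3:**
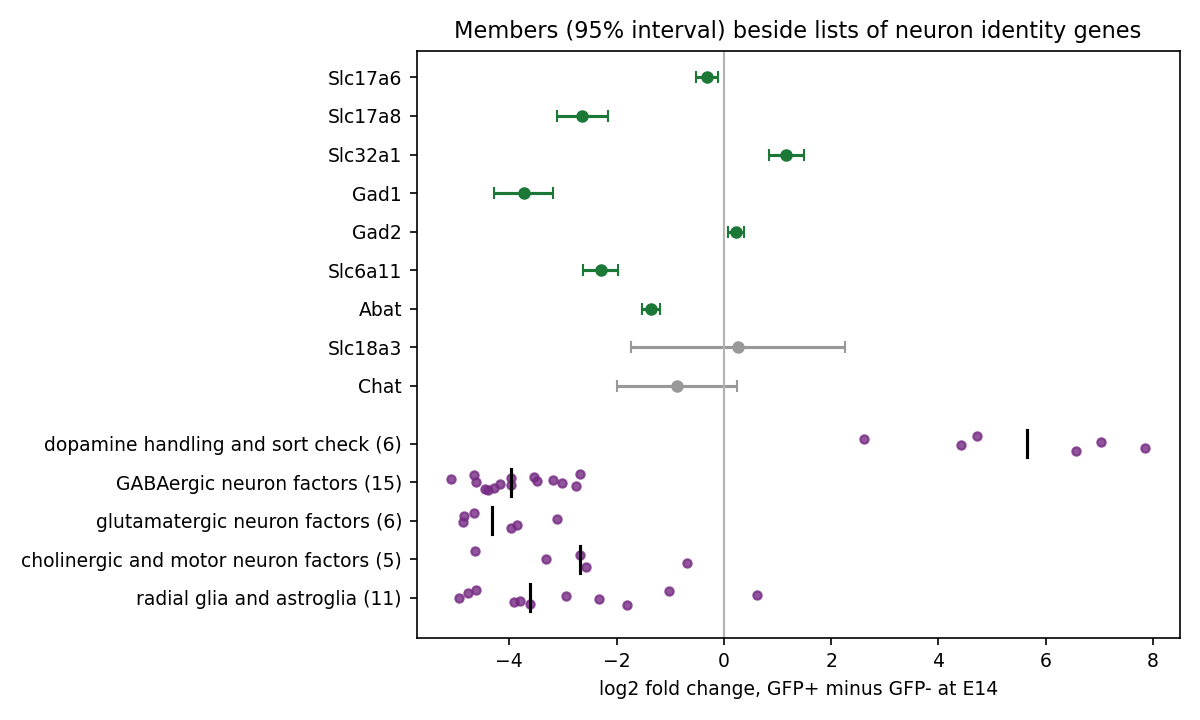
Log2 difference of GFP+ minus GFP- at E14 for each member (bars are 95% intervals, grey did not pass the test) and for genes of 5 other lists (points are genes, vertical ticks are medians). The GABAergic factors all lie below 0, while Slc32a1 (1.16) and Gad2 (0.23) lie above it.

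In the time series of GFP+ cells, RNA of GABA uptake and breakdown rose towards birth, RNA of GABA packaging and of Gad1 fell after E16, and Gad2 rose before E16. Slc6a11, Slc32a1, Gad1, Gad2, Abat and Slc17a6 had a row in this table, while Slc17a8, Slc18a3 and Chat were not analysed here. The table holds abundant genes only. It held 0 of the 15 GABAergic, 0 of the 8 glutamatergic and 0 of the 10 cholinergic and motor neuron genes listed. The part of other neurons in the changes with age was not tested. From E14 to E16, 2 of 6 members passed the test, both higher, against 33.0% of 10781 genes (15.2% higher and 17.8% lower). From E16 to P0, 4 of 6 passed, 2 in each direction, against 33.4% (16.8% higher and 16.6% lower). From E14 to P0, 5 of 6 passed, 3 higher and 2 lower, against 55.7% (25.1% higher and 30.6% lower), so that count is to be read against a background in which most genes changed. The members' median log2 change was 0.23, 0.01 and 0.36 in these comparisons, beside -0.04, -0.01 and -0.05 over all genes. The 3 comparisons share libraries and are not independent of each other.

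**Figure D4:**
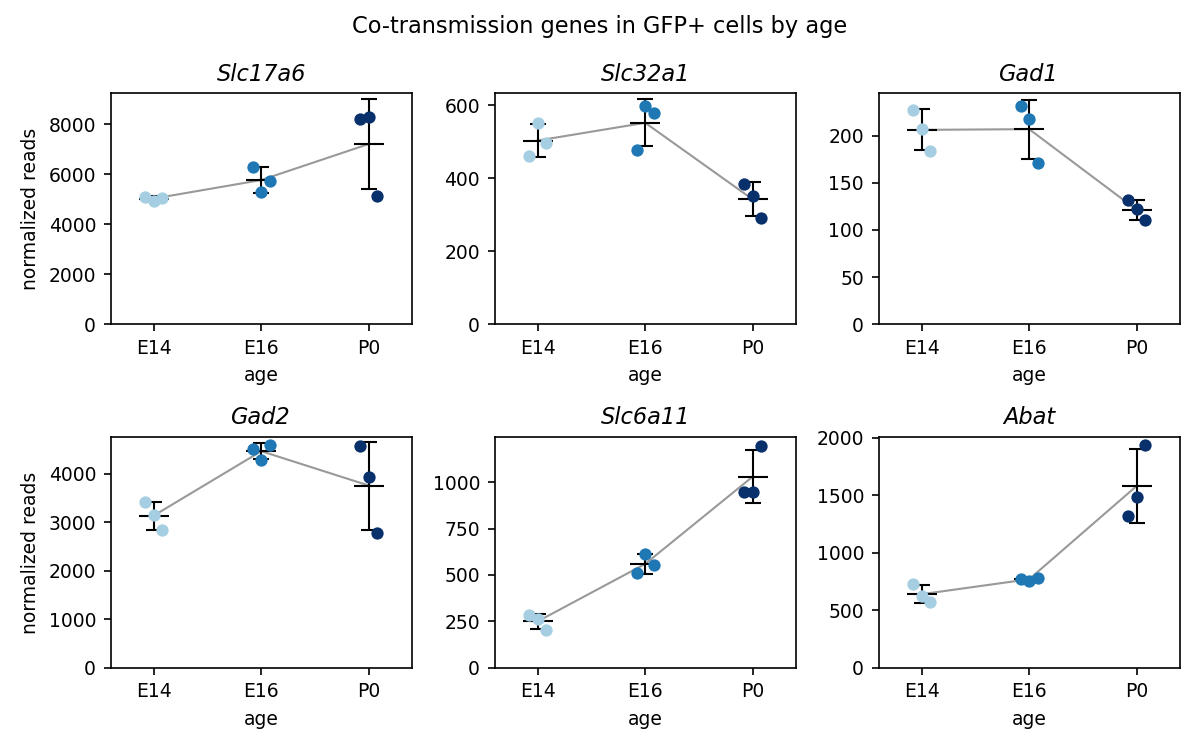
Normalized reads of the 6 members of the time series table in each GFP+ library at E14, E16 and P0 (points are libraries). Slc6a11 lay between 202 and 283 at E14 and between 948 and 1194 at P0, and Gad1 fell to between 110.1 and 132 at P0.

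Slc17a6 stood at 5099, 4931 and 5045 normalized reads at E14, at 6298, 5269 and 5729 at E16 and at 8211, 8294 and 5111 at P0. Replicate 3 at P0 was far below the other two and close to the E14 level. The E14 to P0 change was 0.49 (SE 0.14, limma adjusted p = 0.0102), and it was lost without P0 replicate 1 or 2 (0.37 in each, adjusted p = 0.0518 and 0.0609). The changes of 0.19 to E16 (adjusted p = 0.320) and 0.29 from E16 (adjusted p = 0.133) did not pass, although without P0 replicate 3 the latter was 0.52 (adjusted p = 0.000639).

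Gad2 stood at 3422, 3149 and 2847 normalized reads at E14, at 4511, 4292 and 4604 at E16 and at 4568, 3934 and 2779 at P0. The E16 libraries all exceeded the E14 libraries, and the P0 libraries spread over the range of both. The change to E16 was 0.51 (SE 0.14, limma adjusted p = 0.0101). The change from E16 to P0 was -0.28 (adjusted p = 0.130) and that from E14 to P0 was 0.23 (adjusted p = 0.158). Without P0 replicate 1 the former was -0.43 (adjusted p = 0.0209), and without P0 replicate 3 the latter was 0.44 (adjusted p = 0.00159).

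Gad1 stood at 227, 207 and 184 normalized reads at E14, at 231, 218 and 171 at E16 and at 132, 122 and 110.1 at P0. The P0 libraries lay below all others. The change was -0.00 to E16 (limma adjusted p = 0.996), -0.76 from E16 to P0 (adjusted p = 0.00239) and -0.76 from E14 to P0 (SE 0.15, adjusted p = 0.000877). Slc32a1 stood at 462, 552 and 495 at E14, at 479, 597 and 579 at E16 and at 383, 351 and 292 at P0. Its P0 libraries too lay below all others, with changes of 0.13 (adjusted p = 0.466), -0.69 (adjusted p = 0.00126) and -0.56 (SE 0.13, adjusted p = 0.00196) in the same order.

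Slc6a11 stood at 283, 265 and 202 normalized reads at E14, at 511, 614 and 554 at E16 and at 948, 948 and 1194 at P0. The ages did not overlap, and the changes were 1.17 to E16 (limma adjusted p = 3.10e-05), 0.87 from E16 (adjusted p = 0.000411) and 2.04 from E14 to P0 (SE 0.14, adjusted p = 3.55e-08). Abat stood at 728, 621 and 571 at E14, at 776, 753 and 782 at E16 and at 1319.9, 1488 and 1938 at P0. Its P0 libraries were well above all others, with changes of 0.27 to E16 (adjusted p = 0.115), 1.02 from E16 (adjusted p = 7.08e-05) and 1.29 from E14 to P0 (SE 0.13, adjusted p = 1.42e-06).

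P0 replicate 3 was the highest library in Abat and Slc6a11 and the lowest P0 library in Slc17a6, Gad2, Gad1 and Slc32a1. Fabp7, a radial glia and astroglia marker, stood at 1438, 1081 and 3293 normalized reads in the P0 libraries, 700 to 848 at E14 and 562 to 685 at E16, an E14 to P0 change of 1.19 (limma adjusted p = 0.00213). The other two glial markers of this table fell from E14 to P0. Vim stood at 953, 908 and 882 at P0 against 2709 to 2883 at E14 (-1.62, limma adjusted p = 1.74e-09), and Nes at 285, 213 and 228 against 512 to 638 (-1.30, adjusted p = 8.72e-06). P0 replicate 3 was thus the highest P0 library in Fabp7, the lowest in Vim and between the other two in Nes. The 3 of 11 glial markers in this table summed to 2676, 2202 and 4403 at P0, 4047 to 4306 at E14 and 2737 to 3128 at E16. P0 replicate 3 was also the highest in the sum of the 6 dopamine genes checked, with 70696, 85961 and 102907 in the P0 libraries. That sum was 75965 to 87719 at E14 and 72277 to 79986 at E16. Without P0 replicate 3 the E14 to P0 change was 1.14 for Abat (limma adjusted p = 2.35e-06) and 1.93 for Slc6a11 (adjusted p = 1.99e-07), in both the same direction as with it. The part of glial RNA in these changes was not tested.

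Whether the change after E16 differed from the change before it was tested as a contrast added after the data were seen. The contrast sets whole changes side by side, not rates per day, so intervals of unequal length can move it. It passed for 13.6% of all genes and for 3 of the 6 members: Slc32a1 (-0.82, limma adjusted p = 0.0266), Gad2 (-0.79, adjusted p = 0.0398) and Abat (0.75, adjusted p = 0.0389). It did not pass for Gad1 (-0.76, adjusted p = 0.0765), Slc6a11 (-0.30, adjusted p = 0.444) or Slc17a6 (0.10, adjusted p = 0.842). These calls were fragile. Slc32a1 lost its call without E14 replicate 1, E16 replicate 2 or E16 replicate 3. Gad2 lost its call without E14 replicate 2 or 3, any of the E16 replicates or P0 replicate 2. Abat lost its call without E14 replicate 1 or 2, any of the E16 replicates or P0 replicate 2, and with equal library totals (0.69, adjusted p = 0.0605).

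Per kilobase of exon, the order at E14 was Slc17a6 (931), Gad2 (534), Slc32a1 (179.9), Abat (82.6), Slc6a11 (49.5) and Gad1 (27.0), the same order as in the sorted GFP+ cells for these 6 genes. At E16 Slc6a11 (111) stood above Abat (99.4). At P0 the order was Slc17a6 (1335), Gad2 (639.9), Abat and Slc6a11 (204 each, overlapping), Slc32a1 (122) and Gad1 (15.9). The ratio of Gad2 to Gad1 was 19.6, 19.8 and 20.1 at E14, 25.4, 25.6 and 34.9 at E16 and 45.0, 42.0 and 32.8 at P0, 1.997 times as high at P0 as at E14. The ratio of Slc17a6 to Slc32a1 was 5.72, 4.63 and 5.28 at E14, 6.82, 4.57 and 5.12 at E16 and 11.1, 12.2 and 9.08 at P0, 2.07 times as high at P0 as at E14. For both ratios the E14 and P0 libraries of the time series did not overlap (exact permutation p = 0.1, the smallest possible, adjusted 0.133). The sorted GFP+ libraries, also of E14, had ratios of Gad2 to Gad1 of 17.7 to 39.9, which overlapped those at P0. The rise of this ratio with age thus rests on the E14 libraries of the time series. Ratios of Slc17a6 to Slc32a1 in the sorted GFP+ libraries, 3.92 to 5.99, lay below all those at P0. The ratio of Gad2 to Gad1 overlapped between E16 and P0 (exact permutation p = 0.2), and that of Slc17a6 to Slc32a1 between E14 and E16 (exact permutation p = 0.9).

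Of 5 other GABA-handling genes in the time series table, 4 rose from E14 to P0 (among them Aldh1a1 by 3.04, Aldh5a1 by 0.88 and Aldh9a1 by 0.76 on the log2 scale) and Slc38a1 fell (-0.38), with a median of 0.88. Aldh1a1 and Aldh5a1 rose in both intervals. Of 10 other glutamate-handling genes, 4 rose (among them Slc1a6 by 1.55, Slc1a1, a neuronal uptake transporter, by 1.06 and Got1, an aminotransferase, by 0.63) and 3 fell (Slc38a2 at -1.07, Slc1a2 at -0.46 and Slc38a1 at -0.38). Slc38a1 stands in both lists. Of 3 acetylcholine-handling genes, Ache rose by 2.85 and 2 did not pass.

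Across the 9 time series libraries, the genes most like each member by Pearson's r of log2 values among 10781 genes were taken, 3 for each. They were Nrp1 (0.976), Arhgap29 (0.955) and Abca8b (0.951) for Slc17a6. For Gad2 they were Cntn3 (0.976), Prkcq (0.975) and Ptprk (0.951), and for Gad1 1810014B01Rik (0.973), Gm16076 (0.967) and Vcan (0.964). For Slc32a1 they were Man2a1 (0.981), Sac3d1 (0.960) and Cdc42ep4 (0.956). For Slc6a11 they were Zdhhc22 (0.997), Rasgrf2 (0.996) and Slc2a3 (0.995), and for Abat Klhl32 (0.988), Tmed8 (0.988) and Chd1l (0.987). These libraries share the ages, so the values describe likeness only. Circular RNA values of the sorted experiment were at hand for the GFP- libraries only, so its GFP+ cells were not covered. Of 3927 circular RNAs there, 1 named a member as its host, Gad2, with 0, 4.21 and 0 normalized back-splice reads in the GFP- libraries. None of 7528 in the time series did.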

How the data were processed

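RNA of 15 libraries in 5 groups of 3 was analysed from gene tables. The values are normalized reads, a signal per gene made by the authors. In the sorted experiment the values of each library were whole multiples of 1 step, as division by 1 factor gives. This was not examined for the time series. The tables also hold the authors' deposited log2 fold changes and p-values. All 27 member calls at an adjusted p of 0.05 in the authors' deposited table were the same as those here. Per the submitters' processing notes, the tools included TopHat2, Trim Galore and DESeq2, and the build was GRCm38 (mm10). The versions, the read counter and its use of strand are not given in the sources used here.

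The sorted and time series tables were normalized separately and fitted separately. Genes with a mean of at least 5 normalized reads were tested on log2(value + 1) in a two-sided limma-trend fit (R 4.3.3, limma 3.58.1), with Benjamini-Hochberg adjustment over all genes, and fold changes of low genes are understated on this scale. The 9 time series libraries shared 1 fit. Whole reads were recovered from the sorted table (100% of values whole within 0.1) and tested with edgeR 4.0.16. That test, the contrast between the 2 intervals of the time series and the ratios, with their permutation tests and left-out libraries, were added after seeing the data. Sorted columns show the group and a number but could not be tied to single samples, so their number only names a library. Exon lengths and positions come from GENCODE M21 on GRCm38, and sequences from RefSeq.

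The members and the lists were chosen with earlier results of these data known. All 9 members are named, of each other list up to 3 genes per direction with the largest change past the threshold, and the genes most like each member in the time series. Some genes that this rule names are not reported here. The scripts were tested on simulated data. Lists of oligodendrocyte, microglia, blood vessel, erythroid, cell division and serotonergic or noradrenergic genes had 4 of 6, 6 of 6, 5 of 6, 6 of 6, 6 of 6 and 3 of 3 tested genes lower in GFP+ cells and none higher, and of 7 pan-neuronal genes 3 were higher and 1 was lower.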

Additional observations from a re-analysis of the deposited data

How the results depend on the processing

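The 18 member changes past the threshold (the added contrast apart) were recomputed 252 times under other settings or without a library. None changed direction, 240 kept their call and 12 lost it, all for Gad2 and Slc17a6 as given above. For genes that did not pass, the sign turned for Slc18a3 in the sort with a pseudocount of 10 (-0.11) and in edgeR (-0.48), and ran from -1.01 to 0.90 without single libraries. It turned for Gad1 from E14 to E16 with equal library totals (0.0392) and equal upper quartiles (0.0268), and ran from -0.0866 to 0.13 without single libraries. The added contrast of Slc17a6 ran from -0.0298 to 0.33 without single libraries, and the number of genes it called, 1468, ran from 625 (without E16 replicate 3) to 1801, with 976 without E14 replicate 2 and 887 without P0 replicate 2. The other counts of called genes without single libraries ran from 4185 to 5773 in the sort, 2706 to 3461 from E14 to E16, 2496 to 3660 from E16 to P0 and 5212 to 5585 from E14 to P0, and edgeR called 5541 in the sort. With the replicate block, 8466 genes were called in the sort (4149 higher, 4317 lower) and the added contrast of Gad1 passed (adjusted p = 0.0475). Same-numbered libraries correlated at 0.0976 to 0.367 in the sort and at -0.113 to 0.245 in the time series. Libraries of different number correlated at -0.297 to 0.229 and at -0.300 to 0.149. Not every library correlated best with its own number. These values do not settle whether the sorted fractions were paired, and the numbers were not taken as pairs. Depth limits Chat and Slc18a3, and the time series table limits what can be said to abundant genes.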
